A study of Mus musculus with 10 samples.

Results

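The regions described here are the H4K20me1 peaks that held a smaller share of their library after deletion of Kmt5b in mouse muscle stem cells (MuSCs). H4K20me1 and Pol II S2P, the elongating form of RNA polymerase II phosphorylated on serine 2, were mapped by CUT&RUN, a method that releases the DNA around an antibody-bound target with a tethered nuclease. Ctrl cells carried Pax7CreERT/Suv4-20h1WT and sKO cells carried Pax7CreERT/Suv4-20h1KO, where Suv4-20h1 is the older name of Kmt5b. Both genotypes therefore carried the tamoxifen-inducible Cre driven by Pax7, and all cells were MuSCs expanded in culture. Each genotype had 2 libraries per antibody, so the comparisons rest on 4 H4K20me1 and 4 Pol II S2P libraries. The sources used here do not say whether libraries of one number came from one mouse, and p-values measure the spread between these libraries only. A score is the spike-in normalised coverage of a peak, deposited as a whole number and not divided by length.

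Members were chosen by the H4K20me1 values of the 4 libraries themselves. Each H4K20me1 library was divided by its autosomal total and multiplied by the mean total. Autosomal peaks with a mean above 50 were kept, and 40885 of 44925 peaks passed. A peak was a member when its higher sKO value lay below 0.75 times its lower Ctrl value. This was met by 1566 peaks, 3.83% of those tested. These values are therefore given as a description without a test. The limma fit described below, run on the same values, called 1324 members lower against a background of 4.42% of all tested peaks, and nothing is read from that count because the rule used the same contrast. The reverse rule, with Ctrl and sKO exchanged, held for 7462 peaks.

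H4K20me1 is placed on nucleosomes by KMT5A, and KMT5B together with KMT5C adds further methyl groups to it, giving H4K20me2 and H4K20me3. The monomethyl mark is known from the bodies of transcribed genes and from the inactive X chromosome, and its level changes through the cell cycle. In cultured cells a smaller score can mean less mark per cell or fewer cells with the mark, which these data cannot tell apart. On equal totals a smaller share can also go with a higher deposited score, as in most members below.

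The central 150 bases of 7 members are shown to make the 3 kinds of member described below concrete. They are from GRCm38 (mm10), plus strand, with CG dinucleotides in capitals, since cytosine in this context is where DNA methylation occurs. The first pair are the members with the lowest sKO to Ctrl ratio, the next 3 are those with the highest mean score, and the last pair, over Pkm and Msl2, are transcribed genes chosen after their values were seen.
Intergenic member with the lowest ratio, chr8:72120425-72120574: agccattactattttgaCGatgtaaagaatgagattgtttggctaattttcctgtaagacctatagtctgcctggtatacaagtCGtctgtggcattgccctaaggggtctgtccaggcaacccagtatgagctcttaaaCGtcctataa
Intergenic member with the next lowest ratio, chr8:71804325-71804474: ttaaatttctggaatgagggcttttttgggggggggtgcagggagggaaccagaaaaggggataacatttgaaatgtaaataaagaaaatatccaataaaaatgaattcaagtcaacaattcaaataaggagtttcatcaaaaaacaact
Maea to Fam53a member, chr5:33480925-33481074: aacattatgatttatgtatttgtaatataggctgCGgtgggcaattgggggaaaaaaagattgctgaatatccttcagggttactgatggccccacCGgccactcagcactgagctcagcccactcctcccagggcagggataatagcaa
Zbtb40 and Epha8 member, chr4:136941225-136941374: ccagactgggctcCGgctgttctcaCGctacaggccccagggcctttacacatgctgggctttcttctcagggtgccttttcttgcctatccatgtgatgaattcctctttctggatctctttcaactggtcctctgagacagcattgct
Ankrd11 member, chr8:122944325-122944474: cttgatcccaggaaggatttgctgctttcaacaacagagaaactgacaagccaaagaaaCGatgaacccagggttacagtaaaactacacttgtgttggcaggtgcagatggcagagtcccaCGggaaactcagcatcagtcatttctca
Pkm member, chr9:59669925-59670074: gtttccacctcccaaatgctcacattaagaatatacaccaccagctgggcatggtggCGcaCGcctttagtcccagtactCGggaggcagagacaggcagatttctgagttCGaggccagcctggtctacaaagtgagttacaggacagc
Msl2 member, chr9:101080325-101080474: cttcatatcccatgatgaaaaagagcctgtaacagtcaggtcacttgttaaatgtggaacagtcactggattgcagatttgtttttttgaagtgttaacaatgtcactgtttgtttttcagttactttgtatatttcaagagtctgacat

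Both intergenic members lie outside every annotated gene and are short. The centres over Epha8, Ankrd11, Pkm and Msl2 lie in introns, and that of the member from Maea to Fam53a lies between genes. The 7 sequences hold 0 to 4 CG dinucleotides. In the Pkm intron 89.3% of the 150 bases are masked as repeats, against 0% at the Ankrd11 centre. Over whole members the base composition was close to that of the tested peaks. Median GC content was 44.0% in members and 44.3% in all tested peaks, CG dinucleotides occurred 0.973 and 1.0 times per 100 bases, and repeats covered 24.0% and 21.6%.

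On equal totals the members had a high H4K20me1 level in Ctrl cells and a level below the general one in sKO cells. Their median level was 53.7 and 54.2 scaled score per kb in Ctrl against 34.2 and 33.9 in sKO. All tested peaks had medians of 32.0 and 33.3 in Ctrl against 37.2 and 37.1 in sKO. In peaks up to 10 kb the median sKO level was 25.9 in members against 36.1 in all tested peaks. It was 35.6 against 37.6 from 10 to 50 kb and 39.8 against 41.3 over 50 kb. Together the members held 12.8% and 12.7% of the autosomal score in Ctrl replicates 1 and 2, and 8.08% and 7.95% in sKO replicates 1 and 2. The median sKO to Ctrl ratio was 0.625 for members, with quartiles of 0.568 and 0.674, and 1.12 for all tested peaks. When the tested peaks were put into 10 equal groups by Ctrl level per kb, the top group, above 46.1, held 72.7% of the members, and 27.8% of its peaks were members. The 3 groups of lowest Ctrl level held 0 members. The rule itself favours high Ctrl values, so this describes the choice.

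**Figure D1:**
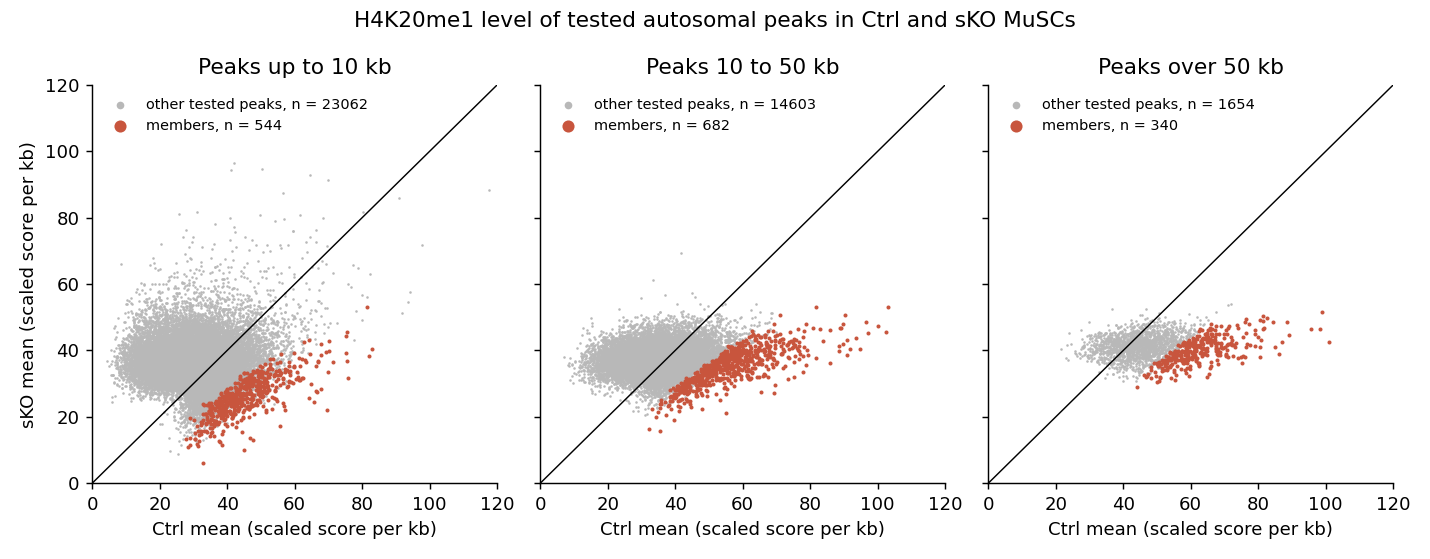
Mean H4K20me1 level of each tested autosomal peak in Ctrl (horizontal axis) and sKO (vertical axis), in scaled score per kb, for peaks up to 10 kb, 10 to 50 kb and over 50 kb. Members are red, other tested peaks grey, and the line marks equal levels. In peaks over 50 kb the Ctrl levels spread widely along the horizontal axis while the sKO levels lie in a narrow band, with a median of 41.3.

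On the scale of the deposited scores most members did not have lower scores in sKO cells. The autosomal totals were 13533657 and 18103713 in Ctrl against 29655556 and 32238286 in sKO, so equal totals divide the sKO libraries by more. Without this step the median sKO to Ctrl ratio was 1.23 for members and 2.19 for all tested peaks. Both sKO scores were above both Ctrl scores in 861 members, and the mean sKO score was below the mean Ctrl score in 180. On the spike-in scale the members thus stood above Ctrl by less than other peaks did, and 0 of them met the factor of 0.75.

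Only 11 of the 1566 members had both deposited sKO scores below both deposited Ctrl scores, and these were also the only such peaks among the 40885 tested. They include Pkm, the muscle form of pyruvate kinase, with 1057 and 1245 in Ctrl against 807 and 976 in sKO. Srsf3, a splicing factor of the SR family, had 736 and 901 in Ctrl against 655 and 703 in sKO. Tra2b, which encodes another splicing regulator, had 1312 and 1495 in Ctrl against 1168 and 1218 in sKO. Ywhaz, a 14-3-3 protein gene, had 1206 and 1291 in Ctrl against 1005 and 1121 in sKO. In these 4 genes every sKO library lay below every Ctrl library on either scale. The others were Msl2, Ddx5, Cdyl, a pair of neighbouring peaks in Auts2, and intergenic peaks at chr8:72118800-72122199 and chr8:101667600-101671999. The limma fit (Benjamini-Hochberg) on the deposited scores called 1 peak lower, the first of these intergenic peaks, with scores of 40, 119, 32 and 21.

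Members were long. Their median length was 20.2 kb (quartiles 6.0 and 45.4 kb) against 8.60 kb for all tested peaks, and the longest reached 291.6 kb. Members made up 2.30% of tested peaks up to 10 kb (544 of 23606), 4.46% of peaks from 10 to 50 kb (682 of 15285) and 17.1% of peaks over 50 kb (340 of 1994). The reverse rule ran the other way, with 22.1%, 14.5% and 1.76% in the same classes. Short peaks have low scores and replicates that differ more. One Ctrl library was over 1.5 times the other in 18.3% of all tested peaks up to 10 kb and in 0% of those over 50 kb. Among members the shares were 8.82% and 0%, where the rule itself requires the lower Ctrl value to be high.

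A protein-coding gene was overlapped by 84.5% of members and 70.7% of tested peaks. Here each peak was matched to the protein-coding gene with the largest shared over combined length in GENCODE M21. In members over such genes the peak covered a median of 48.2% of the gene, against 11.1% in all tested peaks, and 467 members covered at least 80% of it (35.3%, against 13.1%). The annotated gene end lay inside 43.9% of these members and the gene start inside 21.6%. In all tested peaks over such genes the shares were 24.6% and 19.8%. These shares rise with peak length, and members were longer. In each length class members held the start less often, at 4.05% against 10.3%, 23.2% against 25.9% and 36.6% against 48.1%, short to long. The end lay inside 12.1% against 10.7%, 47.6% against 33.6% and 69.6% against 66.6%. Coverage of at least 80% was found in 65.2% against 57.2% over 50 kb. Up to 10 kb the median coverage was 2.95% in members against 4.28%. Among 496 members that covered at least 50% of a gene over 20 kb, the upstream edge lay a median of 974 bases inside the gene and the downstream edge a median of 6062 bases past its end. All 3253 such tested peaks had medians of 887 and 4268 bases, so the median downstream edge lay further out in members. The median upstream edges were close, but those of members spread less. Their quartiles were -469 and 2071 bases against -3362 and 5593, with negative values before the start. The upstream edge lay inside the gene in 64.7% of members and 56.0% of all such tested peaks. Of these members, 24.6% covered the position 0.5 kb before the start and 74.2% the position 0.5 kb before the end, against 37.9% and 66.7% of all such tested peaks.

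**Figure D2:**
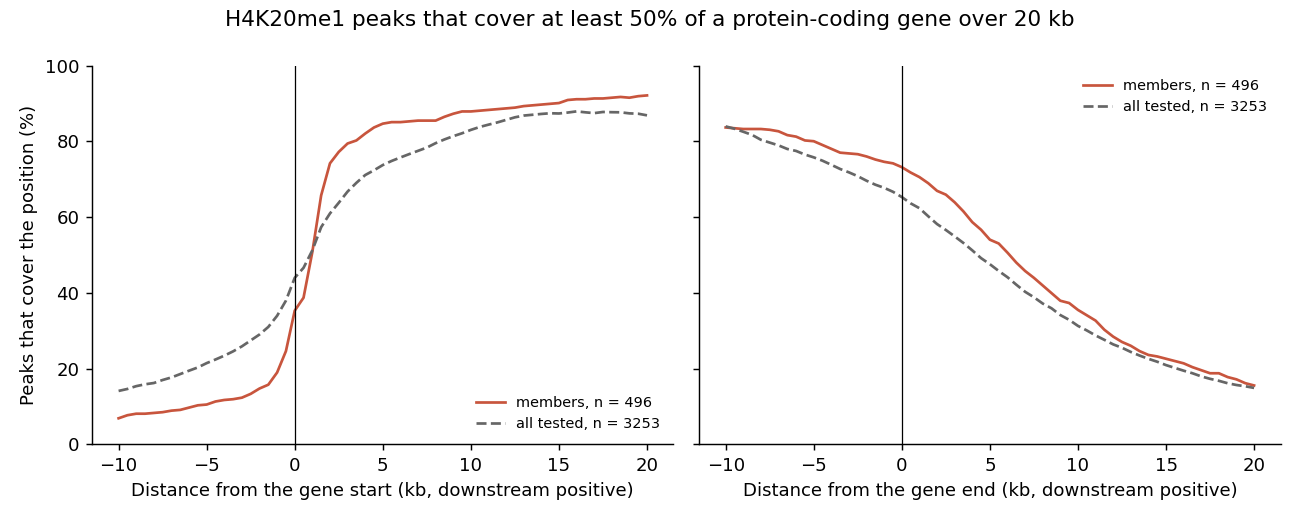
Share of peaks covering each position around the start (left) and the end (right) of the matched gene, in percent, against the distance in kb with downstream positive, for members (red) and all tested peaks (grey) that cover at least 50% of a protein-coding gene over 20 kb. Member coverage climbs from 24.6% at 0.5 kb before the start to 80.2% at 3.5 kb after it.

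Long members often coincided with elongating polymerase. A Pol II S2P peak overlapped 50.7% of members and 25.6% of tested peaks, a measure the rule did not use directly. Longer peaks held one more often in either set, and 87.6% of members over 50 kb and 74.9% of tested peaks over 50 kb did so. Tested peaks were therefore also divided by Pol II S2P score per kb in Ctrl, with limits at 3.68 and 12.6 that split the peaks holding Pol II S2P into 3 equal groups named low, middle and high. Over 50 kb, members were 8.40% of 500 peaks without Pol II S2P, 12.5% of 879 in the low group, 23.1% of 438 in the middle group and 49.2% of 177 in the high group. From 10 to 50 kb the shares were 2.46%, 4.51%, 7.06% and 18.4%. Up to 10 kb they stayed between 0.792% and 2.43% with no such order. The rule favours high Ctrl H4K20me1, and over 50 kb the Ctrl level itself stood higher with more Ctrl Pol II S2P, as given below. Members were not compared with other peaks of equal Ctrl level, so these shares describe the choice as well. The score of a Pol II S2P peak was counted whole where it extended beyond a short H4K20me1 peak, so the density of short peaks includes signal from outside them.

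In Ctrl cells the H4K20me1 level of domains over 50 kb stood higher with more Ctrl Pol II S2P, and in sKO cells it was nearly even across the same classes. The sKO level was not set against sKO Pol II S2P here. The study, which compared the marks within each genotype over coding gene bodies, reports a positive correlation in both. The median Ctrl level in the 4 classes, from none to high, was 43.8, 45.6, 49.3 and 54.8 scaled score per kb, and the median sKO level 40.3, 41.7, 41.8 and 40.8. Across the 1994 tested peaks over 50 kb, Spearman's rho between H4K20me1 per kb and Ctrl Pol II S2P per kb was 0.32 and 0.23 for the Ctrl pair, against 0.11 and 0.05 for the sKO pair. In shorter peaks the order was the other way. From 10 to 50 kb rho was 0.13 and 0.05 for Ctrl and 0.21 and 0.13 for sKO, and up to 10 kb it was -0.11 and -0.23 for Ctrl and 0.23 and 0.20 for sKO. These are correlations across peaks that share library, length and base composition, and peaks are not replicates. The coefficient of variation of the level over the same peaks was 22.0% and 22.2% in Ctrl against 8.76% and 9.22% in sKO. Within the 340 members of this length it was 14.8% and 14.9% in Ctrl against 10.1% and 10.4% in sKO.

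**Figure D3:**
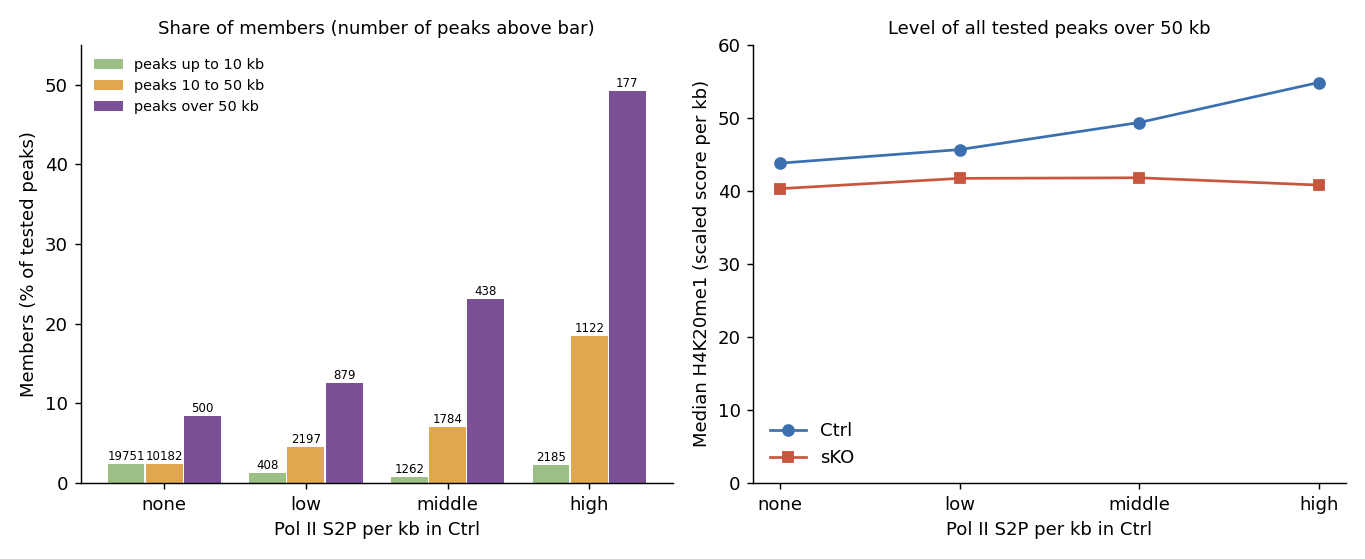
Left, members as a percentage of tested H4K20me1 peaks by length class and by Pol II S2P score per kb in Ctrl, with the number of peaks above each bar. Right, median H4K20me1 level of all tested peaks over 50 kb in Ctrl (blue) and sKO (red), in scaled score per kb. The Ctrl median runs from 43.8 to 54.8 across the classes and the sKO median stays between 40.3 and 41.8.

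The 10 members with the highest mean were domains of 140.0 to 291.6 kb, and 9 of them held Pol II S2P peaks. The highest spans Maea, Uvssa, Nkx1-1 and Fam53a at chr5:33335200-33626799, with scaled scores of 17176 and 17335 in Ctrl against 11500 and 11541 in sKO, a ratio of 0.668. The member over Ankrd11, a chromatin cofactor gene, and the neighbouring Cdh15, the satellite cell cadherin, lies at chr8:122847600-123041199 and held 54 Pol II S2P peaks. Its scaled scores were 15121 and 14115 in Ctrl against 7395 and 7436 in sKO (ratio 0.507), and its deposited scores of 8752 and 10928 in Ctrl bracketed those of 9379 and 10252 in sKO. Col5a1, a fibrillar collagen gene, had 11780 and 11110 in Ctrl against 6639 and 6517 in sKO over chr2:27883000-28052199, a ratio of 0.575. The replicates of these domains lay close together, and no Ctrl value overlapped an sKO value, as the rule requires. The remaining domains covered Zbtb40 with Epha8 (0.568), Med13l (0.634), Ctbp2 (0.631), Ccdc85c (0.646), Hmx1 with Adra2c (0.679), Dip2b (0.723) and Ankrd17 (0.619). The Hmx1 domain was the one without a Pol II S2P peak.

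The 10 members with the lowest ratio were short and low. Their ratios ran from 0.182 to 0.352, their lengths from 1.80 to 4.40 kb, none overlapped a Pol II S2P peak, and 7 overlapped no protein-coding or long noncoding gene. The lowest, at chr8:72118800-72122199, had scaled scores of 69.1 and 154 in Ctrl against 25.2 and 15.2 in sKO. The next, at chr8:71803400-71805399, had 48.4 and 132 in Ctrl against 22.1 and 18.1 in sKO. In both, Ctrl replicate 2 was over 2 times Ctrl replicate 1, so the size of the difference rests on that library. Without Ctrl replicate 2 their ratios were 0.293 and 0.416, and 4 more of the 10 moved by over 1.5 times. These were the peak at chr13:100346600-100348399 (0.275 to 0.440), that at chr4:145405600-145409399 (0.320 to 0.537), Sgcz (0.339 to 0.570) and 9630041A04Rik (0.352 to 0.580). In all 10 members the score of Ctrl replicate 2 was the higher of the Ctrl pair. The 3 that overlapped a gene lay in Auts2, Sgcz and 9630041A04Rik.

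Because low scores lead that order, the members over 10 kb with the lowest ratio were also listed, a choice made after the values were seen. Of the 20 lowest, 16 were protein-coding gene members with Pol II S2P peaks. Pkm led them with scaled scores of 1826 and 1608 in Ctrl against 636 and 708 in sKO, a ratio of 0.391 over chr9:59657600-59682399. Srsf3 at chr17:29032400-29050999 had 1272 and 1164 in Ctrl against 516 and 510 in sKO, a ratio of 0.421. Rbm39, a splicing coactivator, had 3183 and 3146 in Ctrl against 1311 and 1374 in sKO (0.424). Over these domains the mean Ctrl level ran from 65.5 to 102 scaled score per kb and the mean sKO level from 27.1 to 45.5, while all tested peaks over 10 kb had medians of 36.0 and 38.0. Qk, the RNA-binding regulator of splicing, held 80 Pol II S2P peaks in its domain of 104.2 kb, the most of any member, with 9031 and 8934 in Ctrl against 4088 and 4057 in sKO (0.453). The others included Hnrnpdl, Hnrnpf, Tra2b, Celf1 and Ewsr1, all RNA-binding, the chromatin reader Brd2, the male-specific-lethal complex gene Msl2, and Ctnnb1, the gene for beta-catenin, with ratios from 0.423 to 0.464.

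**Figure D4:**
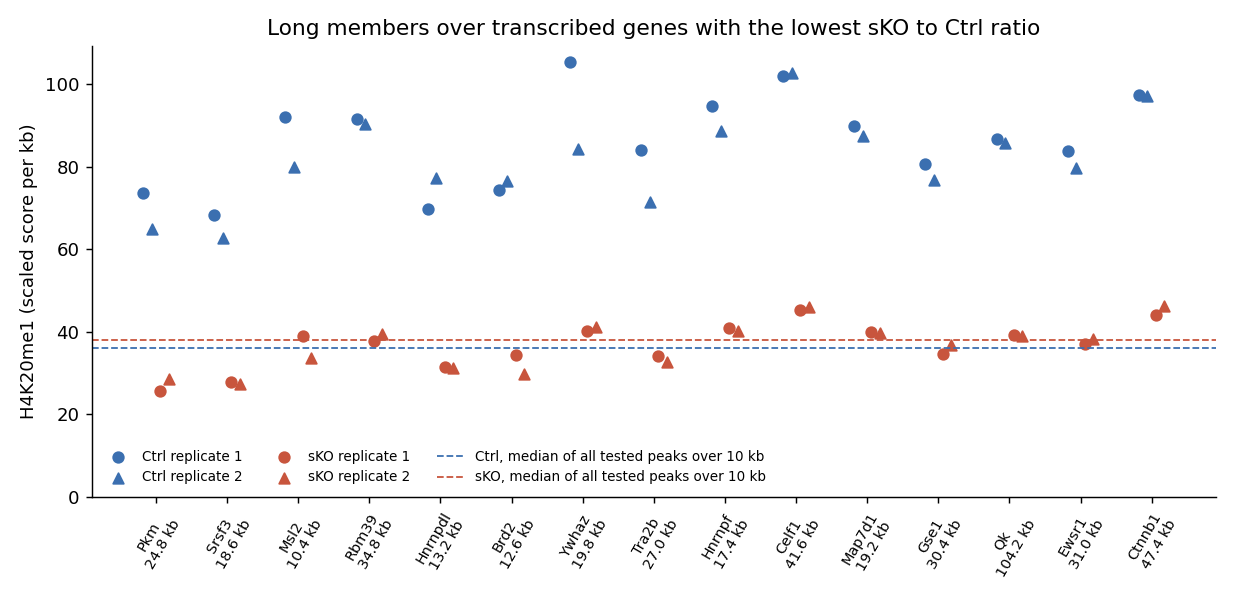
H4K20me1 level in each library, in scaled score per kb, for the protein-coding gene members with Pol II S2P peaks among the 20 members over 10 kb with the lowest ratio, ordered by ratio, with the length of the domain under the name. One of these domains is not shown. Circles are replicate 1 and triangles replicate 2, Ctrl blue and sKO red, and the dashed lines are the medians of all tested peaks over 10 kb. All Ctrl values lie above all sKO values of the same domain.

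Splicing factor genes were frequent among members. Of 19 Srsf and Hnrnp genes listed with a tested peak, 11 had a member (57.9%), beside 1151 of 13726 genes overall (8.39%). These were Hnrnpc, Hnrnpd, Hnrnpdl, Hnrnpf, Hnrnpk, Hnrnpl, Hnrnpm, Hnrnpr, Hnrnpu, Srsf3 and Srsf10, whose products package pre-mRNA and choose splice sites. Hnrnpc had scaled scores of 4086 and 3854 in Ctrl against 1807 and 1910 in sKO at chr14:52058400-52103199, a ratio of 0.468. Hnrnpm had 4086 and 4001 in Ctrl against 2227 and 2110 in sKO (0.536). Srsf10 lay nearest the limit, with 902 and 847 in Ctrl against 632 and 579 in sKO (0.692). The 11 ratios ran from 0.421 to 0.692. Genes of a list differ in length and number of peaks from other genes, and this was not adjusted for.

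Among the other lists, 7 of 16 cytoskeleton and adhesion genes had a member (Actg1, Myh9, Tpm4, Tln1, Vcl, Actn1 and Itgb1). Myh9, nonmuscle myosin heavy chain, had 5121 and 4576 in Ctrl against 3242 and 3107 in sKO over 90.8 kb. Members lay on 5 of 18 cytosolic ribosomal protein genes and 4 of 12 Ras pathway genes (among them Rasa1, Nf1 and Spred2). The Rasa1 member covered 6.8 kb and held no Pol II S2P peak. Its deposited scores were 204 and 283 in Ctrl against 285 and 306 in sKO. The study shows tracks of both marks at Rasa1, on the spike-in scale, beside its genes with increased marks. Members also lay on 3 of 15 TGF-beta genes (Smad2, Smad5 and Ski), 15 of 145 Zfp genes and 2 of 12 sarcomere genes. Further members lay on 2 of 37 collagen genes, 2 of 8 histone genes, 2 of 9 Hox genes and 4 of 95 olfactory and vomeronasal receptor genes. No member was listed with the 7 p53 response genes or the 7 immediate early genes that had a tested peak. Over all genes the share was 8.39%, so lists this small can hold 0 members without differing from it. The shares of Zfp genes (10.3%), collagen genes (5.41%) and olfactory and vomeronasal receptor genes (4.21%) lay near it. Gene length and number of peaks were not adjusted for in these lists either. Of 12 myogenic factor genes with a tested peak, 4 had a member, Pax3, Mef2a, Mef2d and Tcf12. The list as a whole stood on the other side, with a median gene ratio of 1.38 against 1.09 for all genes, and the 5 peaks of Pax7 had ratios of 1.20 to 2.36. Mef2a, a partner of MyoD in muscle transcription, had 4280 and 4061 in Ctrl against 2381 and 2406 in sKO (0.574). The Notch effector Rbpj, needed to keep MuSCs quiescent, had 2 members, and the larger held 3113 and 3211 in Ctrl against 1789 and 1811 in sKO (0.569).

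Of the list of H4K20 methylation enzymes and related chromatin genes, 8 had a tested peak. A member was listed with 3 of these (37.5%), beside 8.39% of all genes. The Kmt5c peak stood on the other side, with 268 and 335 in Ctrl against 539 and 466 in sKO (1.67). At Kmt5b itself a member at chr19:3768800-3801399, inside the gene, had 1868 and 1751 in Ctrl against 1105 and 1154 in sKO, a ratio of 0.624. The other peaks listed with Kmt5b had ratios of 0.921 and 0.927 and were no members. Both Pol II S2P peaks listed with Kmt5b were low, with deposited scores of 17, 36, 26 and 12 and of 7, 26, 22 and 10 in Ctrl replicates 1 and 2 and sKO replicates 1 and 2. Neither mark resolves the deleted part of the gene, so this does not check the deletion. At Kmt5a, the monomethyl transferase, the member held 822 and 852 in Ctrl against 561 and 536 in sKO (0.655). Phf2, a histone demethylase gene, had 4572 and 4844 in Ctrl against 2992 and 3019 in sKO (0.639).

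Some long genes held several members with little Pol II S2P. Cdh13, which encodes T-cadherin and spans 1041 kb, had 14 members among 49 tested peaks, 7 of them up to 10 kb and 1 with a Pol II S2P peak, with ratios from 0.484 to 0.730. In Rbfox3, a neuronal splicing factor gene, 7 of 8 tested peaks were members, at a median of 79.6 kb, 2 of which held Pol II S2P, with ratios from 0.550 to 0.701. Celf2 differed in that all 5 of its members held Pol II S2P peaks, with ratios from 0.468 to 0.673. Ttn, the titin gene, had 5 members of 10 tested peaks, all with Pol II S2P. Other genes with several were Diaph3 (7), Cacna1a and Pard3 (5 each). The deposited table lists 26 members with Gm20388, an annotation of 4435 kb that runs across many genes, of which 9 had it as the best match here and 4 matched Gse1. Overall 69 members matched a gene other than the listed one. Members also lay near each other, with 37.3% within 50 kb of another.

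By chromosome the share of tested peaks that were members ran from 1.65% on chromosome 3 and 2.25% on chromosome 1 to 5.22% on chromosome 11 and 5.29% on chromosome 8. The central 300 bases held motifs about as often in members as in all tested peaks, read on both strands. The AP-1 motif TGANTCA was in 8.43% and 8.98% of them. The E-box form CAGCTG was found in 13.0% and 13.9%. The GC box GGGCGG occurred in 4.28% and 4.03%, and the ETS motif CCGGAAG in 0.894% and 1.11%. The TATA box letters TATAAA were present in 24.1% of members and 22.2% of all tested peaks. None of these motifs contains another.

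At the limit of the rule, the 3 members nearest below 0.75 lay over Ube2e2, Fam172a and Hdac2, and the 3 peaks nearest above it over Vapb, Tcf20 and Snx9. Their ratios of group means were 0.644, 0.674 and 0.722 inside and 0.680, 0.723 and 0.675 outside. The ratios overlap across the limit, since the rule reads the nearest pair of libraries and not the means.

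Membership depended on each of the 4 libraries. With 3 libraries the rule is easier to meet, and it held for 4240 peaks without Ctrl replicate 1, 2388 without Ctrl replicate 2, 2594 without sKO replicate 1 and 2401 without sKO replicate 2. Without Ctrl replicate 1 the median length was 5.20 kb and 22.6% held a Pol II S2P peak, beside 25.6% of the peaks tested there, so the overlap with Pol II S2P among all members was not seen in that set. In the other 3 sets it was 38.5% to 46.0%. The number over 50 kb was 340 with all libraries and 359 to 414 with one left out.

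Pol II S2P was compared between genotypes to ask whether elongating polymerase differed at the members, using libraries the rule did not use. On equal autosomal totals, 7354 Pol II S2P peaks overlapped a member. They held 14.9% and 15.5% of the Pol II S2P score in Ctrl and 16.5% and 16.0% in sKO (15.2% ± 0.404 against 16.3% ± 0.330, SD, n = 2 each). Both sKO shares lay above both Ctrl shares. The difference was 1.05 percentage points (two-sided exact permutation p = 0.333, the smallest p that 2 against 2 libraries allow). All tested H4K20me1 peaks together moved likewise, from 61.4% and 63.2% in Ctrl to 64.5% and 63.8% in sKO. In members up to 10 kb the shares were 1.21% and 1.06% in Ctrl against 1.10% and 1.05% in sKO, which overlap.

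Of the Pol II S2P peaks on members, 2825 had a mean above 50 and were tested by limma on log2(score + 1). Calls required a log2 fold change past 0.5 and, after Benjamini-Hochberg adjustment, p under 0.1. By this limma test 120 rose in sKO (4.25%) and 23 fell (0.814%). Over all 22340 Pol II S2P peaks tested, 2.49% rose and 1.2% fell. The median log2 fold change was 0.07 on members and -0.03 over all tested peaks. Both sKO libraries were above both Ctrl libraries in 821 of the 2825 peaks (29.1%, against 20.5% of all tested) and below both in 477 (16.9%, against 24.0%). Calls depended on 3 of the 4 libraries. Without sKO replicate 1, 30 rose and 7 fell, and without Ctrl replicate 1, 35 rose and 2 fell, while without Ctrl replicate 2 the count that fell was 43. On the deposited scale limma called 3 higher and 0 lower, with 143 and 6 at an unadjusted p under 0.05.

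**Figure D5:**
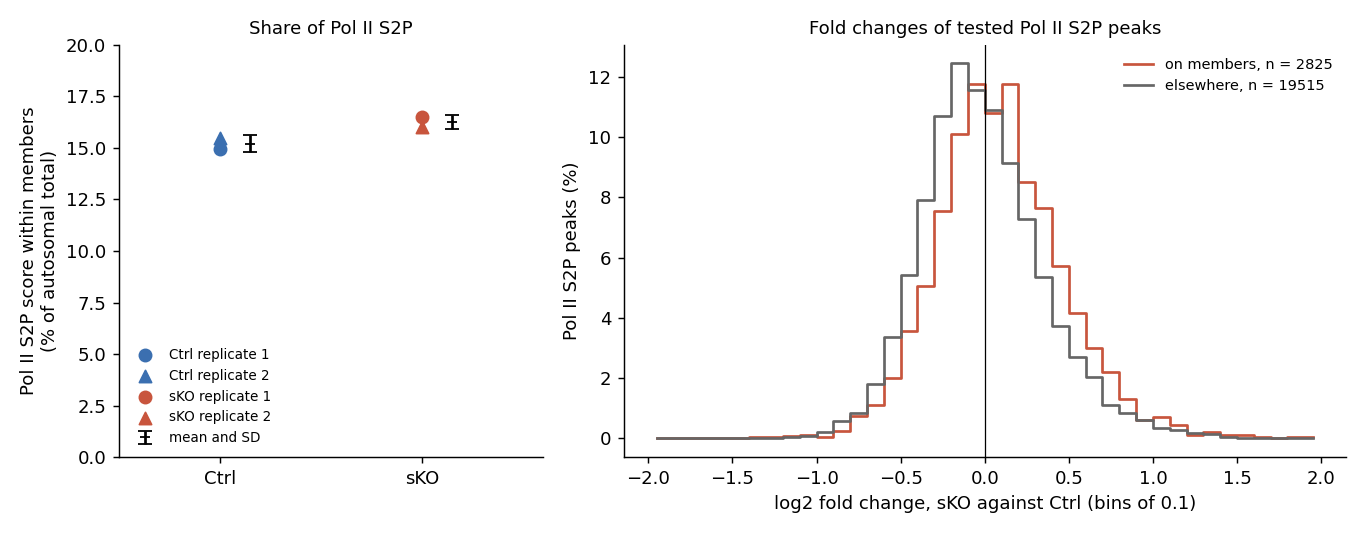
Left, share of the autosomal Pol II S2P score within members in each library, in percent, with the mean and SD of 2 libraries per genotype. Right, distribution of log2 fold changes (sKO against Ctrl, limma, bins of 0.1, values past the axis in the end bins) of tested Pol II S2P peaks on members (red, n = 2825) and elsewhere (grey, n = 19515). The red curve lies slightly to the right, with medians of 0.07 on members and -0.03 over all.

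The peaks that rose lay in 82 members, several per member in some. Slc10a1 and Srsf5 share 1 member with 5 such peaks, and the members matched to Hnrnpc, Hnrnpd, Itgb1, Rap1b and Snx5 had 4 each. A peak in the Hnrnpc member, chr14:52062468-52063142, had scaled scores of 9.72 and 55.9 in Ctrl against 142 and 74.8 in sKO (log2 fold change 2.07 ± 0.42 SE, limma adjusted p = 0.00133). A peak in the member of Snx5, a sorting nexin, had 68.0 and 40.1 in Ctrl against 266 and 93.3 in sKO (log2 fold change 1.58 ± 0.29 SE, limma adjusted p = 0.000308). The groups did not overlap in either, and the replicates of both groups at Hnrnpc and the sKO replicates at Snx5 differed widely. Other large differences were in the members of Cdon (1.81), at a peak listed with Gm1113, and Hnrnpd (1.54), at a peak listed with Vamp9. In all 4 of these peaks sKO replicate 1 was the highest library. The peaks in the Hnrnpc and Hnrnpd members lie outside those genes.

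Peaks that fell lay in 21 members. The member over Ankrd11 and Cdh15 had 3. Its largest drop was in chr8:122847831-122848753, with 192 and 170 in Ctrl against 62.3 and 105 in sKO (log2 fold change -1.15 ± 0.24 SE, limma adjusted p = 0.00164). This peak lies outside Ankrd11 and is listed with Gm20388. A peak listed with Hspa5, in the member over Hspa5 and Rabepk, had 389 and 95.1 in Ctrl against 70.4 and 78.3 in sKO (-1.36). Ctrl replicate 1 sets the size of that difference. The others named by size were in members over Ube2v1 (-1.09), Med26 (-1.09, at a peak listed with Slc35e1), and Ago2, an Argonaute protein of small RNA silencing (-1.07). Both Ube2v1 and Ago2 had closely spaced replicates, with 107 and 87.6 against 43.7 and 46.1 at Ube2v1 and 95.9 and 99.7 against 46.1 and 46.1 at Ago2.

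Summed over all Pol II S2P peaks listed with a gene, the genes with members stood close to other genes. Of 1152 genes listed with a member, 800 were tested, and limma called 10 higher (1.25%) and 3 lower (0.375%). Over all 8538 genes, 1.26% rose and 0.855% fell. The median log2 fold change was -0.04 for genes with members and -0.05 for all genes tested, so the peak-level difference was not seen in the sums. Of the genes that rose, the one listed as Slc10a1, a bile acid transporter, had 1414 and 1530 in Ctrl against 2572 and 2074 in sKO (log2 fold change 0.65 ± 0.11 SE, limma adjusted p = 0.000545). Matr3, a nuclear matrix RNA-binding protein, had 129 and 111 in Ctrl against 223 and 185 in sKO (0.76 ± 0.21, adjusted p = 0.0435). In both genes every sKO library was above every Ctrl library. The other largest were Rgs20 (1.03), Gm4881 (0.73) and Gorasp2 (0.68). Rgs20 had low sums, 47.4 and 39.1 in Ctrl against 119 and 66.8 in sKO (limma adjusted p = 0.0991). Its member held no Pol II S2P peak. Those that fell were Ptma (-0.62), Dip2b (-0.67) and 1190002N15Rik (-0.52). Ptma, the prothymosin alpha gene, had 1310 and 1154 in Ctrl against 766 and 834 in sKO (-0.62 ± 0.12, limma adjusted p = 0.00255). The Pol II S2P peaks on the Dip2b member, which also covers Larp4, did not fall. Their scaled scores summed to 583 and 618 in Ctrl against 712 and 601 in sKO. The domain listed with Slc10a1 also covers the splicing factor gene Srsf5, and that of Gm4881 also covers Arhgef1, so their sums may belong to the neighbour.

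Calls on sums rested on single libraries too. Without sKO replicate 1 limma called 0 higher and 0 lower, with 28 and 31 at an unadjusted p under 0.05. Without Ctrl replicate 2 it called 24 and 13, and without sKO replicate 2 it called 5 and 3. On the deposited scale it called 0 and 0, with 8 and 0 at an unadjusted p under 0.05. All 11 Srsf and Hnrnp genes with a member were tested and 0 were called, with log2 fold changes from -0.10 to 0.27 and a lowest adjusted p of 0.177. The same held for Pkm (-0.02 ± 0.10), Rbm39 (0.21 ± 0.09) and Qk (0.15 ± 0.09), whose H4K20me1 domains had some of the lowest ratios. At Qk the sums were 4662 and 4865 in Ctrl against 5548 and 5036 in sKO, both sKO values above both Ctrl values, with an adjusted p of 0.484.

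As a check of the cell type, Pol II S2P peaks were listed with 7 of 10 satellite cell and myoblast markers, whose deposited scores summed to 5732 and 6479 in Ctrl against 6981 and 4812 in sKO. Pax7 had 7 peaks and Myod1 had 2, while Myf5, Cdh15 and Chodl had none listed. Cdh15 lies in the Ankrd11 member, where a Pol II S2P peak is listed with Gm20388. Its lack of listed peaks therefore does not show a lack of Pol II S2P there. Myod1 had deposited scores of 1329 and 1110 in Ctrl and of 887 and 649 in sKO, so both sKO libraries lay below both Ctrl libraries. Ckm, the muscle creatine kinase of differentiated fibres, had 123 and 163 in Ctrl against 276 and 173 in sKO, with both sKO libraries above both Ctrl libraries. Of the markers of other cells, 1 of 4 immune genes (Cd68, 840 to 1308), 2 of 4 endothelial genes (133 to 256 in sum), 3 of 3 smooth muscle and pericyte genes (548 to 776 in sum), 1 of 4 genes of differentiated muscle (Ckm) and 0 of 3 fibro-adipogenic genes had a peak. Their part in the results was not tested.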

How the data were processed

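All 8 H4K20me1 and Pol II S2P CUT&RUN libraries were analysed, and 2 IgG libraries were not analysed here. Per the methods and the submitters' processing notes, reads were trimmed (Trimmomatic 0.39), aligned to mm10 with STAR 2.7.3a keeping unique alignments, and deduplicated (Picard 2.21.7). The notes also name SICER 0.0.41 and MACS2 2.1.1. The deposited score of each union peak is coverage normalised to the Drosophila S2 spike-in and rounded to whole numbers by the authors, so the scores carry no read counts and count models were not used. The read totals that the study states per library were not used here. Each library was then set to equal autosomal totals, which removes any overall change of the mark that the spike-in scale holds. Peaks with a scaled mean above 50 were tested with limma 3.58.1 (R 4.3.3) after taking log2(score + 1), in a model of genotype alone. Calls needed a log2 fold change past 0.5 and a Benjamini-Hochberg p under 0.1. Analyses used Python 3.11.15, pysam 0.24.0 and pandas 2.3.3. Genes are from GENCODE M21 and sequence from RefSeq GRCm38.p6. The fits were tested on simulated data.

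Members and gene lists were chosen with earlier results of these data known. Named were the 10 members of lowest ratio and the 10 of highest mean, up to 10 genes listed with most members, list genes with a member, the 3 peaks on each side of the limit, and up to 5 Pol II S2P peaks and genes per direction. The members over 10 kb, the 11 members lower on the deposited scale and other names outside these were chosen after their values were seen. A few genes that these rules name are not reported here.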

Additional observations from a re-analysis of the deposited data

Results flagged for a closer look

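Peaks on chromosome X were left out of the choice of members, as in the study's own comparisons. Of 3905 X-linked H4K20me1 peaks with a mean above 50 on the autosomal scale, 1869 (47.9%) met the factor of 0.75, beside 3.83% of the autosomal peaks. No other data outside the comparisons were examined, and groups of 2 libraries are too small to single out a deviating library.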

How the results depend on the processing

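The number of members was 0 on the deposited scale, 3413 with median-of-ratios size factors, which kept all 1566, 630 with a factor of 0.67, and 2388 to 4240 when 1 library was left out. Totals over all chromosomes gave 1184, and a lower or no minimum mean gave 1574. H4K20me1 peaks called lower by limma numbered 1808, 1 on the deposited scale, and 1357 to 2891 with 1 library left out. Pol II S2P peaks called on members were 3 higher and 0 lower on the deposited scale, and 30 to 171 higher and 2 to 43 lower with 1 library left out. Gene sums gave 0 and 0 on the deposited scale, and 0 to 24 higher and 0 to 13 lower with 1 library left out. The difference in Pol II S2P share was 0.532 to 1.57 percentage points in all alternatives run for it, including the pairs of same-numbered libraries. With the replicate number as a block, 113 Pol II S2P peaks on members rose and 20 fell, 13 gene sums rose and 4 fell, and 1834 H4K20me1 peaks were called lower. The deviations of same-numbered libraries from the group means were hardly correlated (0.03 in the H4K20me1 and -0.04 in the Pol II S2P libraries). This cannot show whether they share more than a number, since each genotype gives a single difference per peak. The replicate block changed no count by over 1.5 times. The share of members with a Pol II S2P peak was 22.6% to 59.7% over the choices of members.

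On the deposited scale the ratio was above 1 in 25 of the named peaks recomputed under each setting, and other members named in the report, such as Myh9, Mef2a and Rbpj, stood above 1 too. The 25 were the members of Maea (1.31), Zbtb40 (1.10), Med13l (1.23), Ctbp2 (1.24), Ccdc85c (1.26), Hmx1 (1.32), Dip2b (1.42), Ankrd17 (1.21), Col5a1 (1.13), Ube2e2 (1.25), Fam172a (1.30), Hdac2 (1.42), Kmt5a (1.28), Phf2 (1.24), Kmt5b (1.23), Hnrnpu (1.15), Srsf10 (1.36), Hnrnpr (1.35), Hnrnpd (1.06), Hnrnpl (1.20), Hnrnpk (1.25) and Hnrnpm (1.05), and the peaks of Vapb (1.32), Tcf20 (1.41) and Snx9 (1.32) just outside the limit. The construction of the scale shows the reason, since equal totals divide the sKO libraries by more. The 2 libraries per genotype limit the precision of every value, and scores without read counts allow no counting interval.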
